A study of Mus musculus with 2 samples.

Results

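The 10 genes Pdcd1, Lag3, Havcr2, Tigit, Ctla4, Entpd1, Slamf6, Tox, Nr4a2 and Tcf7, out of 32285 genes in the deposited matrices, were chosen by name as inhibitory receptors and regulators of T cell exhaustion. They were followed through 5179 kept barcodes of 2 replicate libraries, 2378 in replicate 1 and 2801 in replicate 2. The libraries hold polyA RNA of immune cells that were sorted by flow cytometry from MC38 tumours on day 21 and profiled with 3' droplet chemistry. MC38 is a mouse colon carcinoma line. The labels give 1 group, with no treatment, strain or genotype, so every comparison is between classes of barcodes within the same libraries. Whether the replicates are separate animals is not stated, and the words by which the deposited file names differ are not explained there. The p-values therefore cover the spread of class differences between these samples alone, which may be technical.

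T cells that meet antigen for a long time, as in a tumour, come to carry several inhibitory receptors at once and lose effector functions by stages, a state called exhaustion. PD-1, LAG-3, TIM-3, TIGIT and CTLA-4 (genes Pdcd1, Lag3, Havcr2, Tigit and Ctla4) restrain T cells when they bind ligands on tumour or myeloid cells. CD39 (Entpd1) degrades extracellular ATP and marks the terminal state. Tox sets up the chromatin of exhausted cells and Nr4a2 is a nuclear receptor induced by T cell receptor signals. Tcf7 (TCF-1) and the surface receptor Slamf6 mark the progenitors that renew the exhausted pool.

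T barcodes were those with 2 or more UMIs (counted molecules) summed over Cd3d, Cd3e, Cd3g, Trac, Trbc1 and Trbc2, and they were divided by whether they held a UMI of Cd8a or Cd8b1. Replicate 1 gave 33 T barcodes with Cd8 and 168 without, and replicate 2 gave 179 with Cd8 and 271 without. A barcode without a Cd8 UMI is not shown to lack CD8 at this depth. The classes set against them were C1q macrophages (948 and 583 barcodes in replicates 1 and 2), with no CD3 UMI and 5 or more UMIs of C1qa, C1qb and C1qc, and dendritic cells (62 and 20), with no CD3 UMI, at most 1 C1q UMI and marker sums of a dendritic subtype. Median depth was 2290 and 1748 UMIs in T barcodes with Cd8, 1868.5 and 1467 in T barcodes without Cd8, 1398.5 and 1190 in C1q macrophages and 2062 and 902 in dendritic cells. Libraries totalled 5688000 and 5862342 UMIs and shared 0 barcodes. Levels are given in CPM, a gene's UMIs scaled by all UMIs of a class in 1 library, with exact 95% Poisson intervals in brackets. All intervals given cover counting error only, and barcodes are not replicates.

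The CD3 gate did not separate T cells cleanly from macrophage RNA. A C1q sum of 5 or more was found in 23 of 33 and 95 of 179 T barcodes with Cd8, and in 109 of 168 and 146 of 271 without. The C1q genes together stood at 6889 and 4872 CPM in all T barcodes of replicates 1 and 2, against 9858 and 8757 CPM in C1q macrophages. The 6 other macrophage markers (Apoe, Csf1r, Lyz2, Ms4a7, Adgre1 and Cd68) were all detected in T barcodes, at a summed 16510.5 and 4038 CPM, against 24530.1 and 5993 CPM in C1q macrophages. At most 1 C1q UMI was found in 54 and 142 T barcodes, with a summed C1q level of 205 and 230.4 CPM, and their values stand beside the results they bear on. The part of macrophage RNA in the results was examined only by refits with these barcodes. NK cell markers (Ncr1, Klrb1c and Klre1, 2 or more UMIs) were found in 7 and 3 T barcodes. Cd4 had 9 and 5 UMIs and Foxp3 11 and 3 over all T barcodes, so CD4 cells could not be gated. Leukocyte-negative barcodes, with at most 1 UMI over 6 leukocyte genes, numbered 635 and 980, in a sample sorted for immune cells.

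Ctla4 and Pdcd1 were called higher in T barcodes than in macrophages of the same libraries, Havcr2 was not called, and Tcf7 was near the detection floor. Their start regions are shown to place the members on the genome. RefSeq gives such windows, from 250 bases before to 50 after a start, for 8 of the 10 genes (build GRCm38.p6). Capitals mark matches to TCF (ATCAAAG) in Ctla4, PU.1 (GAGGAAG, 2 matches) in Pdcd1, AP-1 (TGANTCA) and PU.1 in Havcr2, and the Nr4a site NBRE (AAAGGTCA) in the second start of Tcf7, where the match reads on the opposite strand.
Ctla4, chr1:60908775-60909074, plus strand: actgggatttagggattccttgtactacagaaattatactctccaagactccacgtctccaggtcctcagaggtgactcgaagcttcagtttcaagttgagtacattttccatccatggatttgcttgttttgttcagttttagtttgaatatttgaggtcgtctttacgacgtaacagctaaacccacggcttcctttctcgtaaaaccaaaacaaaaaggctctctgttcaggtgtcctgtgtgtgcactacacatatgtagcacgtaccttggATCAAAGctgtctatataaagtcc
Pdcd1, chr1:94052504-94052803, minus strand: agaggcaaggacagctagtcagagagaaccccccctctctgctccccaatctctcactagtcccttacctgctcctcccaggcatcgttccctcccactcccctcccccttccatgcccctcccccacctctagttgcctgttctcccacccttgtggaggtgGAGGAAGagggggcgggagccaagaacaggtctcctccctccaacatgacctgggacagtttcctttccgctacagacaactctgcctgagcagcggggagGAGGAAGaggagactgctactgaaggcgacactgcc
Havcr2, chr11:46454681-46454980, plus strand: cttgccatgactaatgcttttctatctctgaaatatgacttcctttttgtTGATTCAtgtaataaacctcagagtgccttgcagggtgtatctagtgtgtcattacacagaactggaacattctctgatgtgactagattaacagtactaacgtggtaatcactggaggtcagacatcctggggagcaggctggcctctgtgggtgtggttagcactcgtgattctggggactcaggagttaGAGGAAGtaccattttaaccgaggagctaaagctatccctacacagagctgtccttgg
Tcf7, chr11:52282546-52282845, minus strand: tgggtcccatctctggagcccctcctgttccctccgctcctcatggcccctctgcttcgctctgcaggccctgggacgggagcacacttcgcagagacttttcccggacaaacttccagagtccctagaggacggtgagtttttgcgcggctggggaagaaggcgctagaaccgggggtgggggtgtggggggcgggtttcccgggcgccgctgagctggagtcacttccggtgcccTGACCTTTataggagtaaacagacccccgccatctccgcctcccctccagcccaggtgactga
Both strands were searched, and the matches did not overlap. Of all 32851 RefSeq windows of this length, 1.51% hold the NBRE letters, 3.73% the TCF letters, 7.81% the AP-1 letters and 13.6% the PU.1 letters. Among the 10 windows of the 8 members, PU.1 letters were in those of Pdcd1, Havcr2 and Entpd1, and each of the other motifs was in 1 window.

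T barcodes held more Ctla4, Pdcd1, Lag3, Tox and Nr4a2 RNA than C1q macrophages of the same libraries, while Havcr2, Entpd1 and Slamf6 did not pass the test. UMI sums of the 4 classes in both libraries were fitted together with edgeR's quasi-likelihood test, with the library as a block, and the T level was the mean of T barcodes with and without Cd8. Of the 10 genes 8 passed the filter on low counts, and 5 of these 8 were called higher. Over all 9677 genes tested 2.56% were called, 1.73% higher and 0.837% lower. The fit found no spread between genes beyond its trend, so its p-values rest on variation pooled over genes, and DESeq2's Wald test was stricter. It called 3 of the 5, Ctla4, Pdcd1 and Lag3.

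Ctla4 competes with Cd28 for the ligands CD80 and CD86 and is also constitutive in regulatory T cells. It stood at 83.6 CPM (61.0 to 112) and 128 CPM (105 to 154) in all T barcodes of replicates 1 and 2, against 1.08 CPM (0.130 to 3.88) and 15.7 CPM (8.34 to 26.8) in C1q macrophages. Both libraries were high in T barcodes and the levels did not overlap between classes. The log2 fold change was 3.90 (SE of 0.36, with edgeR adjusted p = 3.01e-24, DESeq2 adjusted p = 2.54e-05). Its size differed between libraries, at 5.64 in replicate 1 alone and 2.99 in replicate 2 alone, and both macrophage libraries together held 15 Ctla4 UMIs.

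Pdcd1 (chr1:94038305-94052553, minus strand, GRCm38), which encodes PD-1, reached 13.0 CPM (5.23 to 26.8) and 91.7 CPM (72.8 to 114) in T barcodes, against 1.08 CPM (0.130 to 3.88) and 13.3 CPM (6.62 to 23.7) in C1q macrophages. Both classes were higher in replicate 2 than in replicate 1, and T barcodes of replicate 1 lay at the level of macrophages of replicate 2. Within each library T barcodes were higher, by 2.87 on the log2 scale (SE 0.43, edgeR adjusted p = 2.65e-09, DESeq2 adjusted p = 0.00122). The T level of replicate 1 rests on 7 UMIs, and that library alone gave 3.49.

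Lag3, whose protein binds MHC class II, was close in both libraries, at 35.3 CPM (21.3 to 55.2) and 44.1 CPM (31.4 to 60.3) in T barcodes against 6.99 CPM (3.72 to 11.9) and 7.23 CPM (2.65 to 15.7) in C1q macrophages. The levels did not overlap. The difference was 2.47 on the log2 scale (SE 0.43, edgeR adjusted p = 1.33e-06, DESeq2 adjusted p = 0.0054).

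Tox was rare everywhere, with 7 and 15 UMIs in T barcodes (13.0 and 17.0 CPM) against 3 and 0 UMIs in C1q macrophages (1.61 and 0 CPM). Over both libraries the summed T level was 13.9-fold that of macrophages (4.17 to 72.4, exact conditional interval). The fit gave 3.47 (SE 0.82, edgeR adjusted p = 0.00213), but DESeq2 did not call it (adjusted p = 0.933) and replicate 1 alone gave -0.02. In that library the 33 T barcodes with Cd8 held 0 Tox UMIs, which allows up to 29.0 CPM, while the 168 without Cd8 held 7.

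Nr4a2 stood at 20.4 CPM (10.2 to 36.6) and 55.5 CPM (41.0 to 73.3) in T barcodes, against 3.23 CPM (1.18 to 7.02) and 18.1 CPM (10.1 to 29.8) in C1q macrophages. Again replicate 2 was higher in both classes, and T barcodes of replicate 1 were close to macrophages of replicate 2. T barcodes were higher by 1.90 on the log2 scale (SE 0.42, edgeR adjusted p = 0.000509), with a DESeq2 adjusted p of 0.0723. With T barcodes of at most 1 C1q UMI it was 1.996 and was not called (edgeR adjusted p = 0.147).

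Havcr2, the gene of TIM-3 and a receptor of myeloid as well as T cells, stood at 37.2 CPM (22.7 to 57.4) and 64.5 CPM (48.9 to 83.6) in T barcodes, against 34.4 CPM (26.5 to 43.9) and 38.6 CPM (26.4 to 54.4) in C1q macrophages. In replicate 1 the intervals overlapped almost wholly, and in replicate 2 they overlapped in part. The T level was 1.08-fold that of macrophages in replicate 1 (0.619 to 1.81, exact conditional interval) and 1.67-fold in replicate 2 (1.07 to 2.67). The log2 fold change was 0.49 (95% interval -0.08 to 1.06, edgeR adjusted p = 0.603).

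Entpd1 stood at 52.0 CPM (34.6 to 75.2) and 78.1 CPM (60.8 to 98.8) in T barcodes, against 54.8 CPM (44.7 to 66.6) and 126.5 CPM (103 to 153) in C1q macrophages. It was lower in T barcodes of replicate 2 and level with macrophages in replicate 1, and the log2 fold change was -0.62 (95% interval -1.12 to -0.12, edgeR adjusted p = 0.259). Slamf6 stood at 7.44 CPM (2.03 to 19.0) and 19.2 CPM (11.2 to 30.8) in T barcodes, against 16.1 CPM (10.9 to 23.0) and 22.9 CPM (13.8 to 35.7) in C1q macrophages, with a log2 fold change of -0.54 (95% interval -1.43 to 0.35, edgeR adjusted p = 0.787). None of Havcr2, Entpd1 and Slamf6 passed the test over all genes, and the interval of Entpd1 alone left out 0.

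Tcf7 and Tigit were below the filter. Tcf7 had 2 and 6 UMIs in T barcodes (3.72 and 6.79 CPM) against 1 and 1 in C1q macrophages (0.538 and 1.20 CPM), a summed ratio of 7.57 (1.51 to 73.2, exact conditional interval). Leukocyte-negative barcodes held 3 and 20 Tcf7 UMIs (1.52 and 6.89 CPM), so in replicate 2 the T level was not above theirs. The T barcodes with at most 1 C1q UMI held 2 and 3 Tcf7 UMIs (21.5 and 15.4 CPM), a summed ratio to macrophages of 23.3 (3.82 to 245, exact conditional interval). Tigit, which competes with Cd226 for nectin ligands, had 1 UMI in the T barcodes of each library, against 0 and 1 in C1q macrophages.

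**Figure D1:**
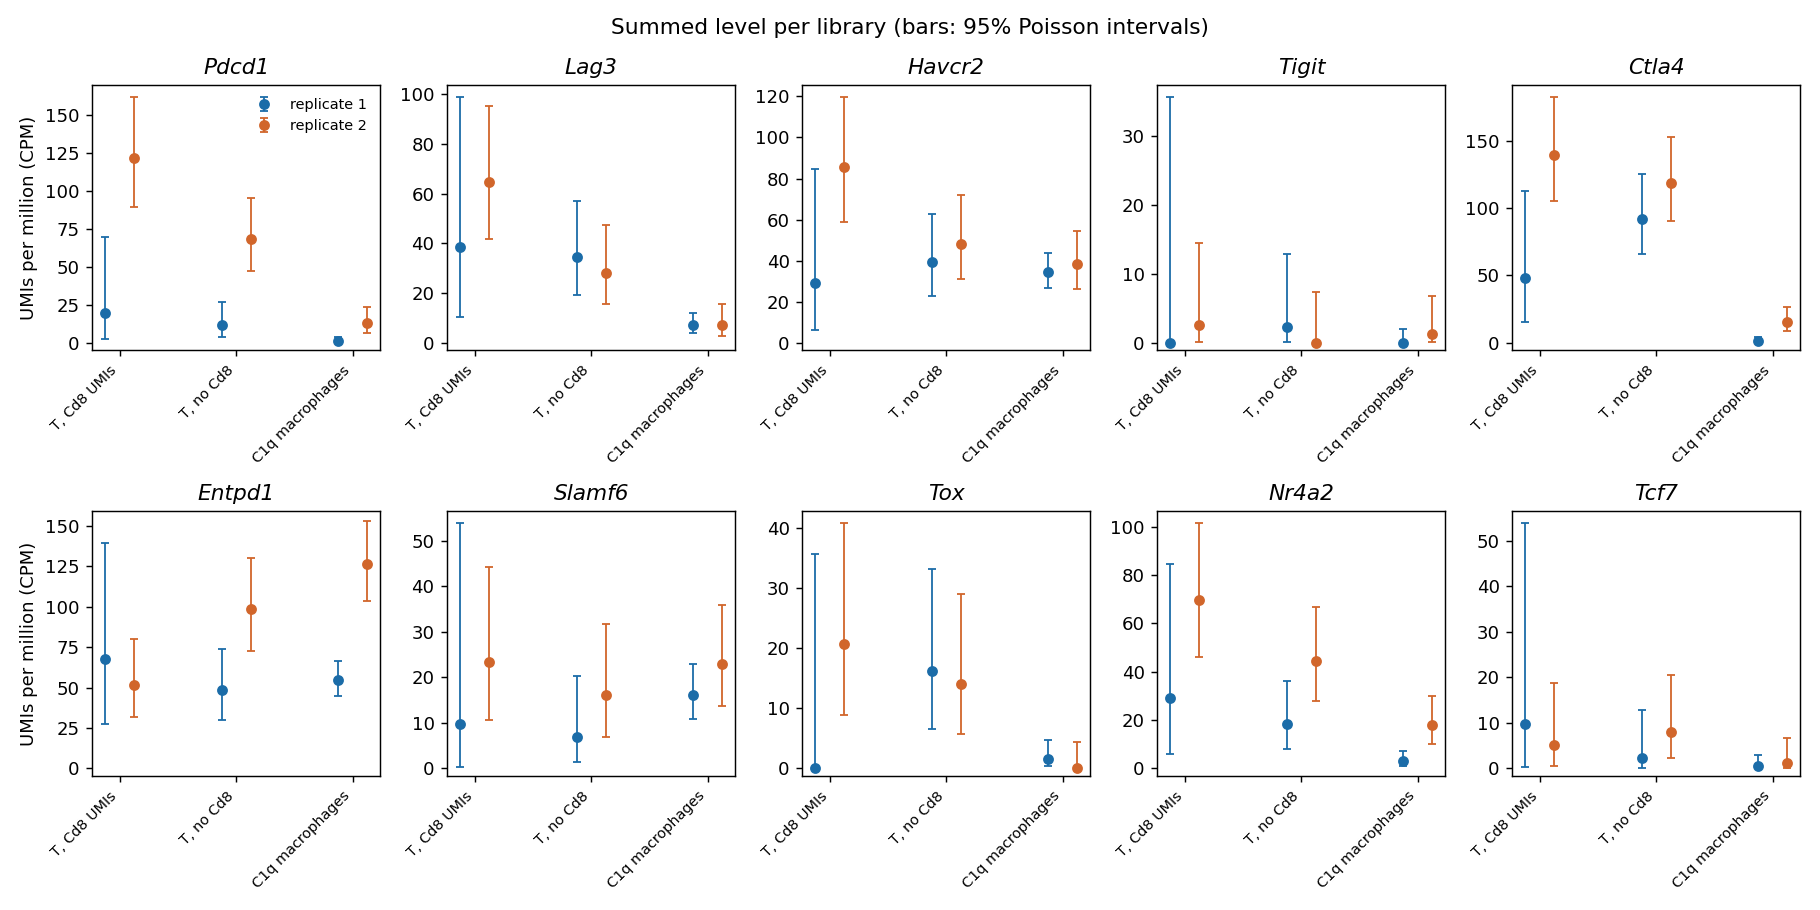
Level of each gene in T barcodes with a Cd8 UMI, T barcodes without one and C1q macrophages, in CPM on a linear axis that differs between panels. Points are the 2 libraries and bars exact 95% Poisson intervals. Ctla4 and Lag3 stand above macrophages in the T barcodes of both libraries, Pdcd1 and Nr4a2 are higher in replicate 2 in every class, and Entpd1 is highest in the macrophages of replicate 2.

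Ctla4, Tox and, in replicate 2, Pdcd1 stood further from macrophages once T barcodes were divided by their own C1q RNA, a division added after the data were seen. Ctla4 stood at 269 CPM (174 to 397) and 189 CPM (133 to 261) in T barcodes with at most 1 C1q UMI, and at 42.7 CPM (25.3 to 67.5) and 93.0 CPM (70.2 to 121) in those with 5 or more. The 269 CPM of replicate 1 rests on 25 Ctla4 UMIs, of which 21 lay in 7 barcodes with 5 or more CD3 UMIs. The Poisson interval does not cover such clustering of UMIs in few barcodes. Tox stood at 32.3 CPM (6.66 to 94.4) and 51.2 CPM (24.5 to 94.1) against 7.11 CPM (1.47 to 20.8) and 6.64 CPM (1.81 to 17.0). Pdcd1 had 1 UMI in the 54 C1q-low T barcodes of replicate 1 and stood at 174 CPM (120.5 to 243) in the 142 of replicate 2, against 7.11 and 63.1 CPM in T barcodes with 5 or more. Ctla4 and Tox were thus higher in C1q-low barcodes of both libraries, although the intervals of Tox overlapped in replicate 1. Lag3 stood at 43.1 and 61.4 CPM against 33.2 and 33.2 CPM, Havcr2 at 43.1 and 71.7 CPM against 35.6 and 64.7 CPM, and Nr4a2 at 32.3 and 61.4 CPM against 16.6 and 54.8 CPM, with overlapping intervals. Entpd1 ran the other way, at 32.3 CPM (6.66 to 94.4) and 61.4 CPM (31.7 to 107) against 54.5 CPM (34.6 to 81.8) and 86.3 CPM (64.5 to 113), also with overlapping intervals. C1q-low T barcodes were shallower (median 1232.5 and 1146.5 UMIs against 2254 and 2125), held more CD3 RNA (2971 and 3041 CPM against 1470.3 and 1592 CPM) and had 0 Foxp3 UMIs in either library. When only C1q-low T barcodes entered the fit, in which the median of all genes was -0.41, Ctla4, Pdcd1, Lag3 and Tox were still called against macrophages.

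The T barcodes with an Entpd1 or a Tox UMI also differed in C1q RNA from those without. The 27 and 57 T barcodes with an Entpd1 UMI held a median of 24 and 13 C1q UMIs, against 10 and 5 in those without, and were deeper (median 2577 and 2099 UMIs against 1889.5 and 1477). The 7 and 14 T barcodes with Tox held a median of 3 and 0 C1q UMIs, against 11.5 and 6 in those without, at a median depth of 1886 and 1409 UMIs against 1932 and 1521. Scaled by depth, C1q stood at 7789 and 6532 CPM in T barcodes with Entpd1, against 6676 and 4581 CPM in those without, and at 3381 and 1728 CPM with Tox, against 6994 and 4959 CPM without. The other members did not share 1 pattern. T barcodes with Havcr2 held a median of 16 and 7 C1q UMIs, against 11 and 5 without, and those with Ctla4 5 and 5, against 12 and 6.

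**Figure D2:**
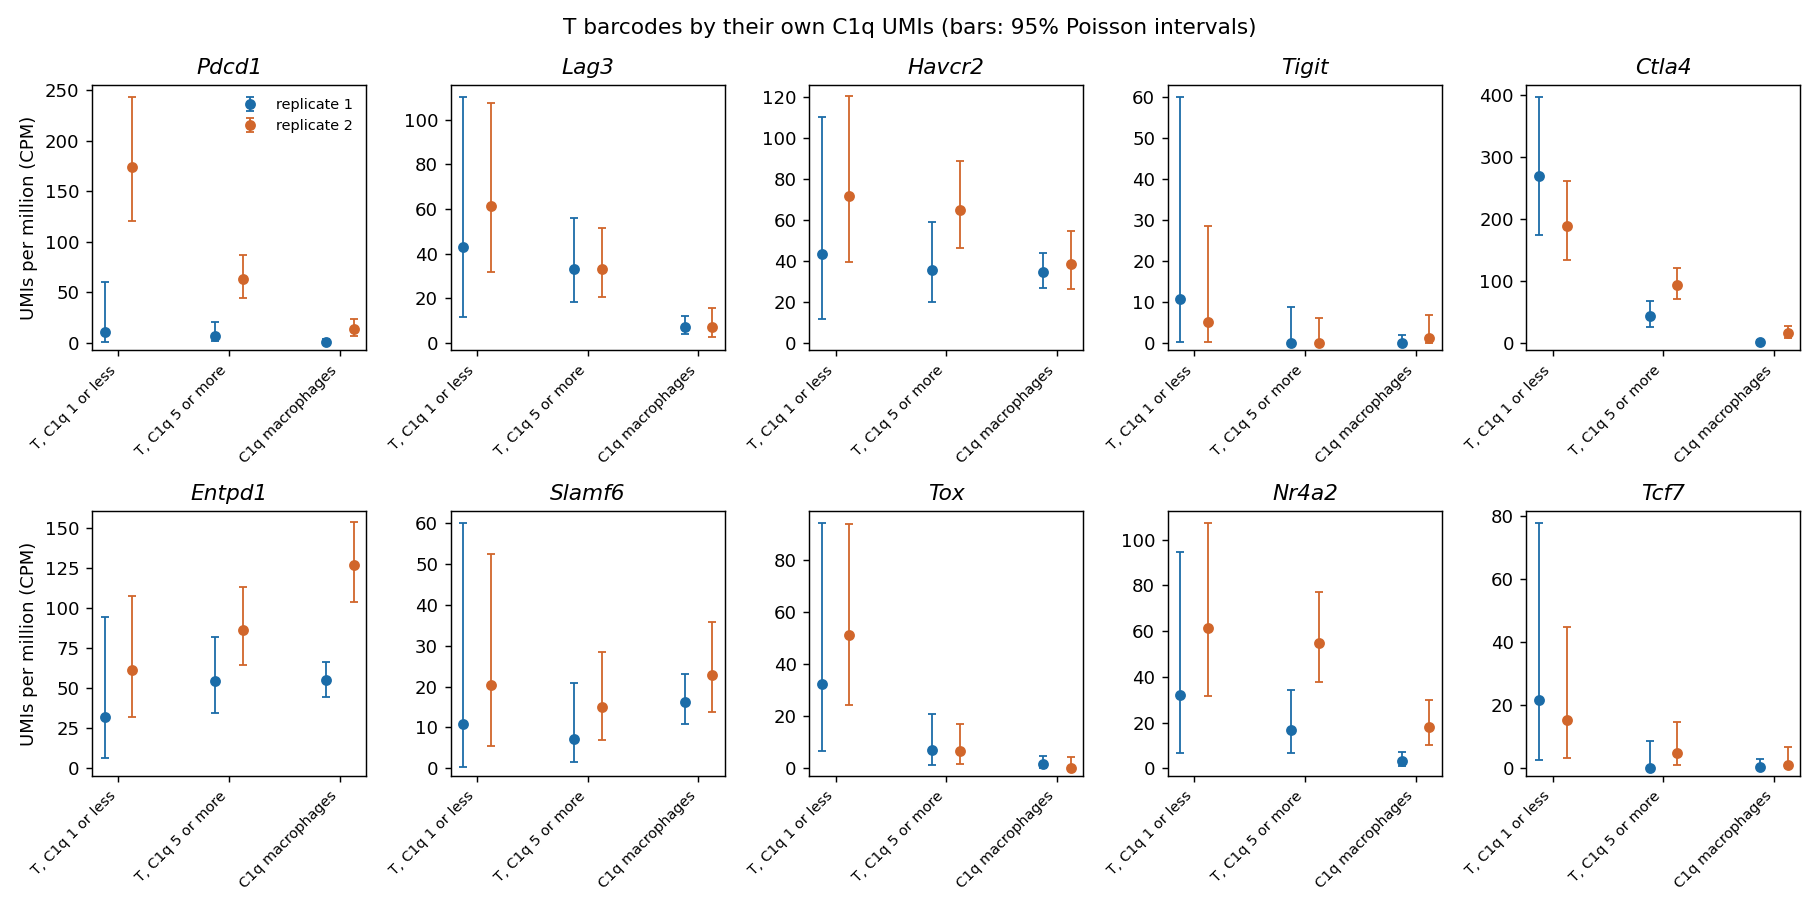
Level of each gene, in CPM, in T barcodes with at most 1 C1q UMI, T barcodes with 5 or more and C1q macrophages. Points are the 2 libraries and bars exact 95% Poisson intervals, and axes differ between panels. Ctla4 steps down from C1q-low T barcodes to macrophages in both libraries, whereas Entpd1 of replicate 2 has its highest level, 126.5 CPM, in macrophages.

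Ctla4 RNA was also higher at higher CD3 counts among barcodes with 5 or more C1q UMIs, though not at every step. In replicate 2 Ctla4 stood at 15.6 CPM with 0 CD3 UMIs, 53.9 with 1, 80.1 with 2, 64.2 with 3 or 4 and 125 with 5 or more. In replicate 1 the same steps were 1.08, 33.3, 10.5, 35.6 and 64.5 CPM, of which the level at 2 CD3 UMIs rests on 1 UMI of Ctla4. The gate falls between 1 and 2 CD3 UMIs, and barcodes just outside it already held Ctla4 above the level of macrophages. Entpd1 showed no such order, at 127, 99.6, 103, 90.9 and 70.7 CPM in replicate 2 and 54.8, 61.0, 73.5, 35.6 and 59.1 CPM in replicate 1.

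Few dendritic barcodes were found, so few UMIs of any member stood behind their levels. Pdcd1, Ctla4, Tigit, Tox and Tcf7 had 0 UMIs in the 62 and 20 dendritic barcodes. Havcr2 had 4 and 0, Entpd1 3 and 0, Slamf6 2 and 2, Nr4a2 1 and 1, and Lag3 1 and 0. Scaled by depth, Slamf6 was at 13.6 CPM (1.65 to 49.3) and 98.0 CPM (11.9 to 354) in dendritic cells, with intervals that overlapped those of T barcodes, and Havcr2 at 27.3 CPM (7.44 to 69.9) in replicate 1. Set against a floor of 3 UMIs per library (20.5 and 147 CPM in dendritic cells), Ctla4 in T barcodes of replicate 1 was at least 4.09-fold higher. The floor of replicate 2 was above the Ctla4 level of T barcodes, and for Pdcd1 neither library gave a bound. In edgeR Ctla4 passed (adjusted p = 0.00107, DESeq2 adjusted p = 0.103), 1 of the 8 members tested, where 1.98% of all genes were called. Pdcd1 did not pass (edgeR adjusted p = 0.194). It passed when dendritic cells with any C1q sum were taken, an alternative added after the data were seen that held 128 and 50 barcodes (edgeR adjusted p = 0.000702). Lag3 differed by 2.78 on the log2 scale (SE 1.16), Entpd1 by 1.43 (SE 0.82), Nr4a2 by 1.14 (SE 1.03), Havcr2 by 1.11 (SE 0.75) and Slamf6 by -0.95 (SE 0.96), with edgeR adjusted p-values of 0.344 to 0.774, and none of these passed. The median of all genes tested was 0.38 here and 0.22 with DESeq2's size factors. The 6 macrophage markers all rose in this comparison, Apoe by 4.50 (SE 0.61, edgeR adjusted p = 3.89e-10), and these are the markers that T barcodes share with macrophages. C1q stood at 6889 and 4872 CPM in T barcodes against 81.9 and 294 CPM in dendritic cells, which were gated to hold at most 1 C1q UMI.

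None of the 8 members tested passed the test between T barcodes with and without Cd8 in edgeR or in DESeq2. C1q stood at 7415 and 4655 CPM with Cd8, against 6764 and 5041 CPM without, and barcodes with Cd8 were deeper. The part of depth and of C1q RNA in these values was not tested beyond the refit with C1q-low barcodes. Pdcd1 stood at 19.3 CPM (2.34 to 69.8) and 122 CPM (89.4 to 162) with Cd8, against 11.5 CPM (3.74 to 26.9) and 68.4 CPM (47.4 to 95.6) without. It was higher with Cd8 in both libraries, by 0.78 on the log2 scale (95% interval 0.01 to 1.55, edgeR adjusted p = 0.998), and was the 1 member whose interval left out 0. Lag3 stood at 38.7 CPM (10.5 to 99.0) and 64.7 CPM (41.9 to 95.5) with Cd8, against 34.5 CPM (19.3 to 56.9) and 28.2 CPM (15.4 to 47.3) without, a log2 fold change of 0.82 (95% interval -0.09 to 1.73). Ctla4 stood at 48.3 CPM (15.7 to 113) and 139.7 CPM (105 to 182) with Cd8, against 92.1 CPM (65.8 to 125) and 119 CPM (90.4 to 153) without, a log2 fold change of -0.14 (95% interval -0.77 to 0.48). Its direction differed between libraries, being lower with Cd8 in replicate 1 and higher in replicate 2.

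Havcr2 stood at 29.0 and 85.4 CPM with Cd8, against 39.1 and 48.3 CPM without, a log2 fold change of 0.58 (95% interval -0.21 to 1.37). Entpd1 stood at 67.7 and 51.7 CPM with Cd8, against 48.3 and 98.6 CPM without, a log2 fold change of -0.66 (95% interval -1.44 to 0.11). The libraries disagreed in direction for both genes. Nr4a2 had 0.55 (95% interval -0.35 to 1.45) and Slamf6 0.56 (95% interval -0.86 to 1.98), and Tox stood at 0.00 (95% interval -1.02 to 1.02). Of all genes tested edgeR called 6, or 0.062% (0.0103% higher and 0.0517% lower), with 344 at an unadjusted p under 0.05, and DESeq2 called 0, with 70. Gzma, Gzmc, Gzmd, Gzmf and Gzmg, genes of granule proteases, were lower with Cd8 and the chemokine gene Ccl1 was higher. These 6 were named after their values were seen, and the granzymes c to g are near-identical copies among which reads can be split. Gzma had 0 and 2 UMIs with Cd8, against 13 and 130 without, and its UMIs without Cd8 came from 3 and 19 barcodes.

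Detection per barcode was compared after thinning each barcode to 800 UMIs by a random draw that was not repeated. This kept 33 and 160 T barcodes with Cd8, 147 and 238 without, and 765 and 497 C1q macrophages. The intervals do not cover variation between draws, so a share of 0 after thinning does not mean that the class held no UMI. Ctla4 had a UMI in 3.03% (0.0767 to 15.8, exact Clopper-Pearson interval) and 11.9% (7.30 to 17.9) of T barcodes with Cd8 and in 5.44% (2.38 to 10.4) and 7.98% (4.87 to 12.2) without, against 0.131% (0.00331 to 0.726) and 0.805% (0.220 to 2.05) of macrophages. Before thinning, the shares were 6.06% and 25.1% with Cd8 and 14.3% and 15.1% without, against 0.211% and 1.72% of macrophages. Pdcd1 had a UMI in 0 of 33 (upper bound 10.6%) and 8.75% (4.87 to 14.2) of thinned T barcodes with Cd8 and in 0 of 147 (upper bound 2.48%) and 7.14% (4.22 to 11.2) without, against 0.131% and 1.21% of macrophages. Lag3 had a UMI in 0 of 33 and 6.88% (3.48 to 11.97) with Cd8 and in 2.72% (0.746 to 6.82) and 4.62% (2.33 to 8.12) without, against 0.523% and 0.604% of macrophages. The intervals of T barcodes without Cd8 lay above those of macrophages in both libraries for Ctla4, and in replicate 2 for Pdcd1 and Lag3.

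Havcr2, Entpd1 and Slamf6 were detected in T barcodes and macrophages with overlapping intervals in both libraries. Havcr2 had a UMI in 0 of 33 and 5.62% (2.60 to 10.4) of thinned T barcodes with Cd8 and in 4.76% (1.94 to 9.57) and 5.04% (2.63 to 8.64) without, against 2.48% (1.502 to 3.85) and 3.42% (2.005 to 5.42) of macrophages. Entpd1 had a UMI in 3.03% and 5.62% with Cd8 and in 6.12% and 7.56% without, against 4.18% and 8.85% of macrophages. Slamf6 had a UMI in 0 of 33 and 1.88% with Cd8 and in 0.680% and 1.68% without, against 0.654% and 1.21% of macrophages. Leukocyte-negative barcodes, at a median depth of 1977 and 2193.5 UMIs, were set beside them. Their gate limits leukocyte RNA by choice, so they are not a measured background. Whether these barcodes express members themselves was not tested. Thinned to 800 UMIs they held Ctla4 in 0 of 575 (upper bound 0.639%) and 0.655%, Pdcd1 in 0.174% and 0.109%, Havcr2 in 0 of 575 and 0.109%, and Lag3 in 0 of 575 and 0 of 916 (upper bound 0.402%). Tcf7 had a UMI in 0 of 33 and 0.625% (0.0158 to 3.43) of thinned T barcodes with Cd8 and in 0.680% (0.0172 to 3.73) and 1.26% (0.261 to 3.64) without, against 0.174% (0.00440 to 0.965) and 0.546% (0.177 to 1.27) of leukocyte-negative barcodes. These intervals overlapped, and macrophages held Tcf7 in 0 of 765 and 0.201% (0.00509 to 1.12).

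**Figure D3:**
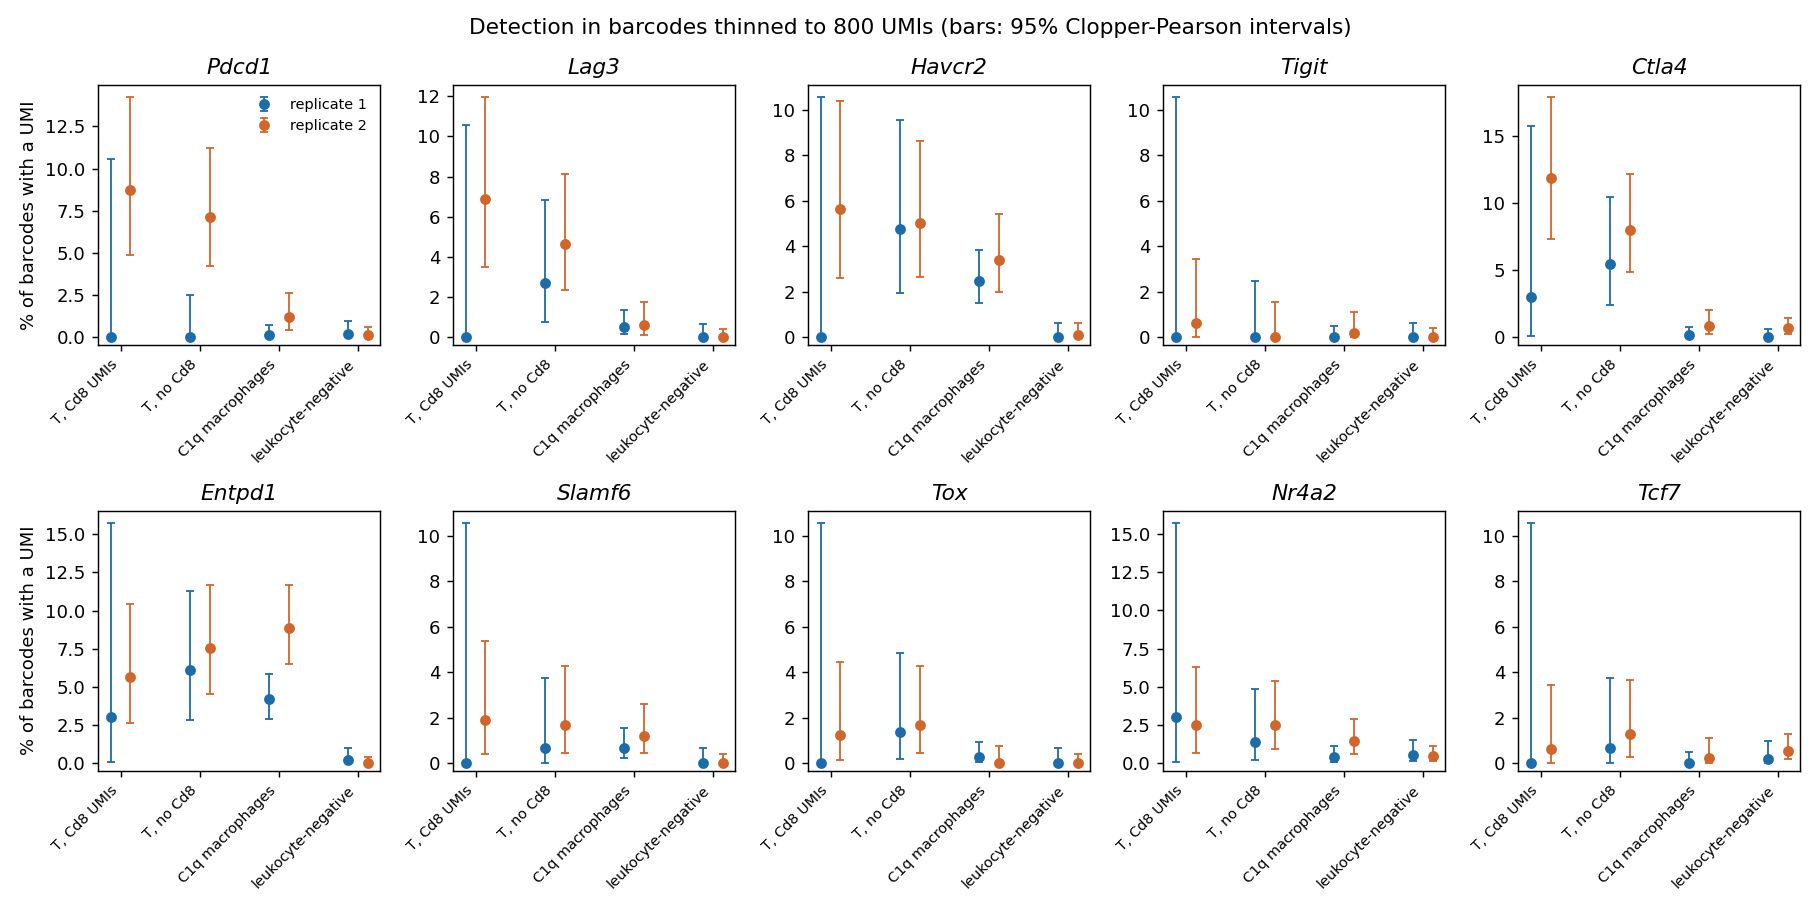
Share of barcodes with a UMI of each gene after thinning every barcode to 800 UMIs, in T barcodes with and without Cd8, C1q macrophages and leukocyte-negative barcodes. Points are the 2 libraries and bars 95% Clopper-Pearson intervals. In replicate 2 Ctla4, Pdcd1 and Lag3 reach 11.9%, 8.75% and 6.88% of T barcodes with Cd8, while the intervals of Havcr2 and Entpd1 in T barcodes overlap those of macrophages.

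Most T barcodes showed at most 1 of the 10 genes. No member had a UMI in 58.2% of T barcodes of replicate 1 and 47.3% of replicate 2, against 80.9% and 73.6% of C1q macrophages. Exactly 1 was found in 58 and 147 T barcodes, a pair in 20 and 67, and 3 or more in 6 and 23, with 4 and 6 as the highest numbers in a barcode. These shares use all UMIs, and T barcodes were deeper than macrophages (median 1918 and 1521 UMIs against 1398.5 and 1190). Thinned to 800 UMIs, no member had a UMI in 80.6% and 67.1% of T barcodes, against 91.8% and 84.1% of macrophages. At that depth 3 or more were found in 0 of 180 and 6 of 398 T barcodes, against 0 of 765 and 1 of 497 macrophages.

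Co-detection of the receptors was seen mainly in replicate 2. Pdcd1 and Ctla4 shared 14 of its 450 T barcodes, where the product of their shares gives 11.5. Havcr2 and Ctla4 shared 13 (product 9.17), Pdcd1 and Havcr2 11 (6.40), Ctla4 and Nr4a2 11 (6.31), Ctla4 and Entpd1 11 (10.9), Lag3 and Ctla4 10 (7.07) and Pdcd1 and Lag3 7 (4.93). Pdcd1 had a UMI with Ctla4 in 10 of 179 T barcodes with Cd8 (product 8.04) and 4 of 271 without (4.24). Over all 45 pairs the numbers summed to 160 in replicate 2, against a summed product of 120.0, and to 41 in replicate 1, against 28.6. The pairs share barcodes and depth, so they are not independent observations.

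At 800 UMIs the sums were 46 against 29.7 in replicate 2 and 2 against 3.08 in replicate 1. A barcode with 3 or more members counts for several pairs. The 46 came from only 22 barcodes with 2 members and 6 with 3 or more. Of the 10 pairs of replicate 2 with a product of 1 or more, 8 lay above it and 2 below. Pdcd1 and Ctla4 then shared 6 of 398 barcodes (product 2.96), Lag3 and Ctla4 5 (2.10), Pdcd1 and Lag3 5 (1.71) and Havcr2 and Ctla4 4 (2.01). Among T barcodes of replicate 2 with at most 1 C1q UMI no excess was seen, with a sum of 32 against 33.1 with all UMIs and 11 against 12.01 at 800, and Pdcd1 and Ctla4 shared 3 of 142 (product 3.70). Among T barcodes of replicate 2 with 5 or more C1q UMIs the sum was 98 against 72.6 with all UMIs and 19 against 12.5 at 800. The 19 came from 7 barcodes with 2 members and 3 with 3 or more. Of the 5 pairs with a product of 1 or more there, 1 lay above it and 4 below. In replicate 1 the sum in C1q-low T barcodes was 15 against 7.94 with all UMIs and 2 against 2.02 at 800. In C1q macrophages the sum was 23 against 15.1 and 33 against 19.9 in replicates 1 and 2 with all UMIs. At 800 UMIs it was 4 against 1.99 and 11 against 5.58 there, so a sum above the product was not particular to T barcodes.

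**Figure D4:**
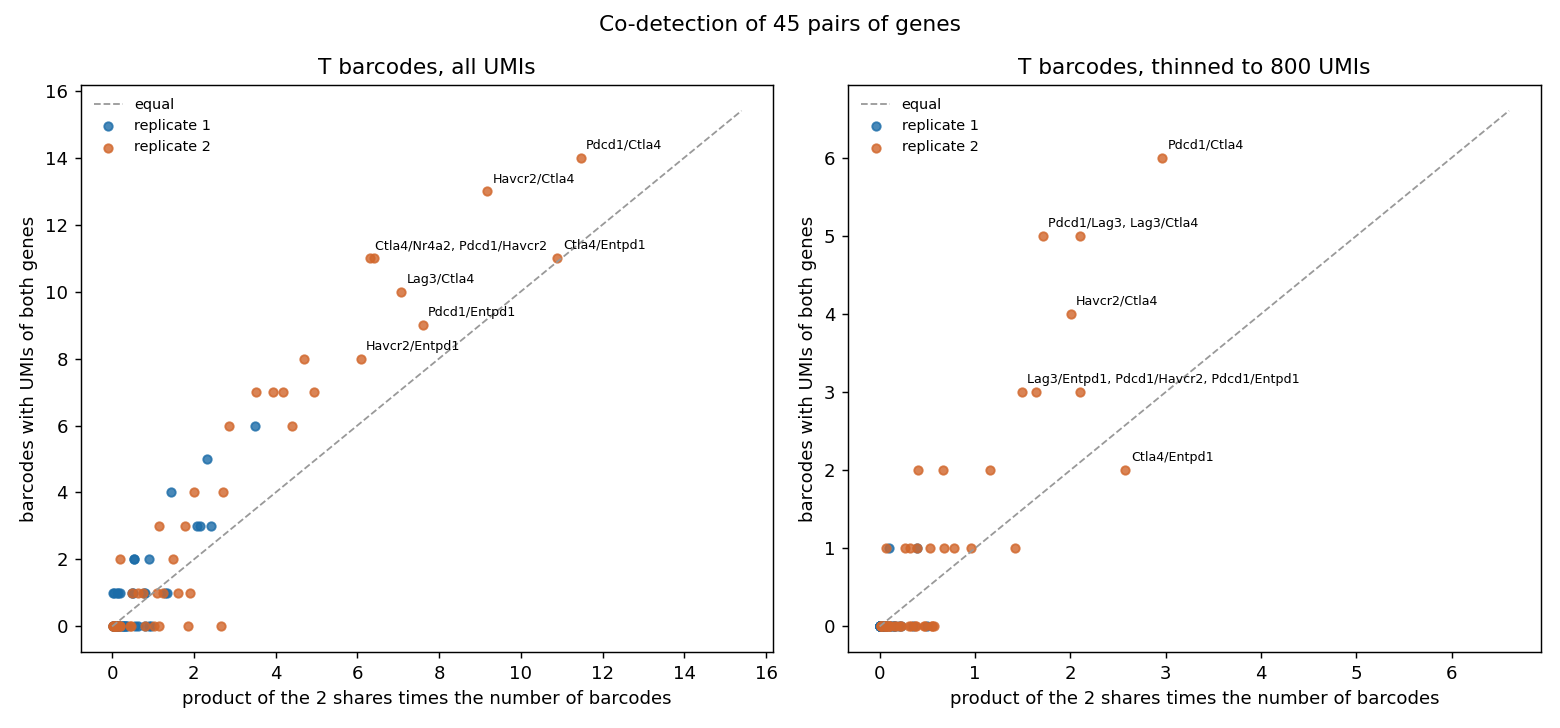
For each of 45 pairs, the number of T barcodes with UMIs of both genes (vertical) against the product of their shares times the number of barcodes (horizontal), with all UMIs and after thinning to 800. Points are pairs in 1 library, the dashed line marks equality, and each label lists, left to right, the pairs of replicate 2 that start at its point. Pdcd1 with Ctla4 lies highest in both panels, at 14 barcodes with all UMIs and 6 at 800.

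Among T barcodes, a UMI of Ctla4 went with Ikzf2 and Il2ra, of the regulatory T cell markers, in replicate 1 and with Gzmb in replicate 2, and the difference between the libraries was not tested. In replicate 1 a UMI of Ikzf2, the transcription factor Helios, was found in 10 of 26 T barcodes with Ctla4 (38.5%, 20.2 to 59.4) and 18 of 175 without (10.3%, 6.21 to 15.8). Il2ra, the high-affinity IL-2 receptor chain, was in 7 of 26 (26.9%, 11.6 to 47.8) and 11 of 175 (6.29%, 3.18 to 10.97). Foxp3, the defining factor of regulatory T cells, was in 2 of 26 (7.69%, 0.946 to 25.1) and 7 of 175 (4.0%, 1.62 to 8.07), and Cd4 in 2 of 26 and 6 of 175, with overlapping intervals. In replicate 2 Ikzf2 was in 12 of 86 with Ctla4 (13.95%, 7.42 to 23.1) and 28 of 364 without (7.69%, 5.17 to 10.9), with overlapping intervals, Il2ra in 4 of 86 and 13 of 364, and Foxp3 in 2 of 86 and 1 of 364. Gzmb, a granule protease of cytotoxic cells, was there in 38 of 86 with Ctla4 (44.2%, 33.5 to 55.3) and 103 of 364 without (28.3%, 23.7 to 33.2), and in replicate 1 in 7 of 26 with Ctla4 (26.9%, 11.6 to 47.8) and 34 of 175 without (19.4%, 13.8 to 26.1). It was in 25 of 48 T barcodes of replicate 2 with Havcr2 (52.1%, 37.2 to 66.7) and in 28.9% (24.5 to 33.6) of those without. In replicate 1 Gzmb was in 4 of 18 with Havcr2 (22.2%, 6.41 to 47.6) and 37 of 183 without (20.2%, 14.7 to 26.8), with overlapping intervals. For Pdcd1 the Gzmb shares of replicate 2 were 22 of 60 (36.7%, 24.6 to 50.1) and 30.5% (26.0 to 35.3), which overlapped. T barcodes of replicate 2 with Ctla4 or Havcr2 were deeper than those without (median 1615 and 1904.5 UMIs against 1494 and 1489.5), and the part of depth in these shares was not tested. T barcodes with Ctla4 also held less C1q RNA than those without, at 4449 against 7211 CPM in replicate 1 and 4433 against 4985 CPM in replicate 2. The part of macrophage RNA in the shares of Ikzf2, Il2ra and Gzmb was not tested.

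Other genes of the same pathways, listed with earlier results of these data known, were read from the same fit of T barcodes against C1q macrophages. Of 12 other inhibitory receptors 5 were higher and 1 lower, with a median log2 fold change of 0.27 against -0.07 over all genes tested. The NK-type receptor Klrc1 rose by 3.58 (SE 0.40, edgeR adjusted p = 1.52e-16), at 46.5 and 87.1 CPM in T barcodes against 3.23 and 8.43 CPM in macrophages. Cd5, which damps T cell receptor signals, had 15 and 35 UMIs in T barcodes against 1 and 0 in macrophages, and Cd160, which binds HVEM, 11 and 44 against 1 and 0. Cd96, a nectin receptor, rose by 3.23 (edgeR adjusted p = 0.000101, DESeq2 adjusted p = 0.0874). Klrg1 was also higher (3.32), and Lair1, a collagen receptor of myeloid and lymphoid cells, was lower (-0.75), both named after their values were seen. Reads of Klrc1 can be split with its close copies.

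Of 14 tested transcription factors of activated and exhausted T cells (16 listed), 2 were higher and 0 lower, with a median of 0.58. They were Ikzf3 (3.56, edgeR adjusted p = 0.00797) and Bhlhe40 (0.95, edgeR adjusted p = 0.0174), neither of which DESeq2 called. Of 9 tested progenitor and memory genes (12 listed) 2 were higher, the chemokine gene Xcl1 by 2.94 (SE 0.30, edgeR adjusted p = 2.94e-20) and the chromatin organiser Satb1 by 2.50 (edgeR adjusted p = 0.0067, DESeq2 adjusted p = 0.214). Of 11 tested effector genes (12 listed) 5 were higher, with a median of 3.15. Gzmb rose by 4.02 (SE 0.29, edgeR adjusted p = 7.46e-41), Nkg7, a cytotoxic granule protein, by 3.93 (SE 0.28), the cytokine gene Ifng by 4.31 (SE 0.48) and the chemokine receptor Cxcr6 by 3.15 (SE 0.36).

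All 8 costimulatory receptors were higher, with a median of 3.67. The adhesion receptor Cd2 rose by 4.10 (SE 0.35, edgeR adjusted p = 1e-28), and the TNF receptor family members GITR (Tnfrsf18), OX40 (Tnfrsf4) and 4-1BB (Tnfrsf9) by 3.58, 3.46 and 3.33. Of 5 regulatory T cell markers 3 were higher, Ikzf2 by 3.29 (SE 0.39, edgeR adjusted p = 6.42e-15), Il2ra by 2.27 and Ikzf4 by 3.49, of which DESeq2 called Ikzf2. Foxp3 and Il10 did not pass. Of 8 tested ligands of the inhibitory receptors (10 listed) 0 passed in either direction, with a median of -0.27. Cd274, the gene of PD-L1, stood at 35.3 and 157 CPM in T barcodes against 21.5 and 176 CPM in macrophages, higher in replicate 2 in both. Of the 6 macrophage markers Adgre1 was lower (-0.91, SE 0.21, edgeR adjusted p = 0.00115, DESeq2 adjusted p = 0.625) and 5 did not pass. Both NK markers tested were higher, Klrd1 by 2.46 and Klrk1 by 1.41. Of 1 gamma delta and 1 B cell gene tested 0 passed. Against dendritic cells, 6 of 11 effector genes, 5 of 8 costimulatory receptors, 2 of 12 other inhibitory receptors and 1 of 5 regulatory T cell markers were higher. Between T barcodes with and without Cd8, Gzma was the 1 listed gene called.

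Across 12 points, 6 classes in each of 2 libraries, the genes whose log2(CPM + 10) pattern was most like each member were ranked by Pearson's r. The points share libraries and differ widely in depth, so r is a description only. Nearest were Gimap7, Gimap6 and Gimap5 for Ctla4 (0.99 to 0.98), Cxcr6, Rgs16 and Prf1 for Pdcd1 (0.93), Klrc1, Cd27 and Gimap1 for Lag3 (0.96) and Gimap5, Prf1 and Gzmc for Tox (0.88 to 0.87). These are genes with high levels in T barcodes. For Havcr2 they were Lfng, Ptpn7 and Smpdl3a (0.98 to 0.97), for Entpd1 Acp5, Slc43a2 and Siglece (0.99 to 0.97) and for Slamf6 Vps26a, Slc7a7 and Gm6377 (0.97). For Nr4a2 they were Tnip1, D16Ertd472e and Cox17 (0.91 to 0.89) and for Tcf7 Plekhn1 and Emg1 (0.85 and 0.81). The Tigit count, 4 UMIs over these classes, was too low to rank.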

How the data were processed

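The deposited matrices give UMI counts, unnormalised, for every gene in every barcode. Cell Ranger 6.0.1 made them, per the file headers. Seurat 4.0.1 and mm10 are named in the submitters' processing notes. Barcodes with 300 or more genes and under 10% mitochondrial UMIs were kept. Scrublet (scanpy 1.11.5) called 10 and 36 doublets (0.880%), which were left out. It is a low rate for replicate 1 (0.419%), and barcodes holding C1q and CD3 RNA remained. Classes were set by UMI sums of fixed marker genes. NK-like, neutrophil-like and leukocyte-negative barcodes were set apart, and the rest were called other.

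Counts were summed per library over 4 classes (8 sums). Genes with 15 or more UMIs in all were tested by quasi-likelihood in edgeR 4.0.16 under R 4.3.3 (TMM, library as block, Benjamini-Hochberg adjustment, threshold 0.05), with gate genes left out of the tests. The 3 residual degrees of freedom come from classes of the same 2 libraries, which the replicate number pairs by construction. DESeq2 1.42.0 was an alternative. Simulated counts for the T against macrophage comparison (9677 genes) gave back 79% of 2-fold and 100% of 4-fold changes, without macrophage RNA in T barcodes. The changed genes were drawn from well-detected genes only, so these rates do not cover rare genes such as Tox and Slamf6. The members and lists were chosen with earlier results of these data known. Named genes were the 10 members, up to 4 called genes of each list by smallest p, and the 3 most like each member with 30 or more UMIs. Some genes that the rule or lists held are not reported here. Gene positions are from GENCODE vM21 on GRCm38.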

Additional observations from a re-analysis of the deposited data

How the results depend on the processing

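Without the replicate block, 94 genes were called against macrophages, 82 against dendritic cells and 0 between T barcodes with and without Cd8, where the block gave 248, 192 and 6, and members called numbered 5, 1 and 0 either way. DESeq2's Wald test called 74, 91 and 0 genes and 3, 0 and 0 members. With C1q-low T barcodes 40 genes were called against dendritic cells and 2 by Cd8. With dendritic cells of any C1q sum, 382 genes were called against macrophages and 2 members against dendritic cells.

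Reversed directions were those of uncalled values, apart from Tox against macrophages. With 1 library alone, a reversal was recorded only for members that the main fit called. Without 1 library Tox against macrophages ran from -0.015 to 5.91, while its summed T level in replicate 1 was 8.07-fold that of macrophages. Against dendritic cells of any C1q sum Entpd1 stood at -0.20. By Cd8, C1q-low T barcodes gave Havcr2 -0.63, Slamf6 -1.64, Nr4a2 -0.036 and Tox -0.32. Tox by Cd8 also stood at -0.084 without the replicate block, -0.44 in DESeq2, -0.0017 with no filter, -0.035 with all deposited barcodes and -0.0066 with dendritic cells of any C1q sum. The cause was not tested. Of 273 log2 fold changes of members under alternatives, 239 were counted as unchanged. For fits of both libraries this meant the same direction and side of the threshold. For 1 library alone, which gives no adjusted p, it meant a value within the SE of the main fit. Counts of calls could not be had from 1 library, which leaves no residual degrees of freedom. Depth limits Tcf7, Tigit and Tox throughout.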

Other observations

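Outside the T, macrophage and dendritic classes, Ctla4 stood at 11.8 and 40.8 CPM and Pdcd1 at 2.36 and 30.4 CPM in the 517 and 734 barcodes that met no gate in replicates 1 and 2. These held Entpd1 at 41.3 and 83.8 CPM and Havcr2 at 36.6 and 37.7 CPM. In leukocyte-negative barcodes Nr4a2 had 17 and 14 UMIs (8.61 and 4.82 CPM). The 26 neutrophil-like barcodes of replicate 2 held 7 Entpd1 UMIs (269 CPM, 108 to 554), and the 8 of replicate 1 held 0. The 7 and 3 T barcodes with NK markers held 4 and 3 Havcr2 UMIs.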
